A study of Mus musculus with 12 samples.

Results

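The liver makes most of the proteins of blood clotting and of the complement system, and 39 genes of these 2 systems were followed here through total RNA and ribosome footprints of mouse liver. They were chosen by name, as the coagulation genes (21) and complement genes (18) with a row in the deposited score table, which holds 26260 transcripts of 11587 genes. Where a gene had several transcripts their scores were averaged, which applied to 17 of the 39 members. Coagulation is a chain of plasma proteases that ends in thrombin, which turns fibrinogen into fibrin, while plasmin later dissolves the clot and serpins restrain both steps. Complement is a second protease cascade, opened by antibody, by sugars on microbes or by its own slow turnover, that converges on C3 and C5 and ends in the membrane attack complex. Hepatocytes secrete most of these proteins at high rate, so their mRNAs are translated on the endoplasmic reticulum.

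The series compared Maf1 KO mice with wild-type mice, all on the C57BL/6 background, with 3 mice of each genotype (KO1, KO2 and KO4; WT1, WT2 and WT3). MAF1 is a general repressor of RNA polymerase III, and the question was how its loss changes translation in liver. From each mouse a footprint library and a total RNA library were made from whole liver extract, so that every cell type of the organ contributed. According to the labels the mice were refed and 12 to 14 weeks old, whereas the methods describe mice of 12 weeks with free access to food, and they were killed at 9 PM. Material from Drosophila S2 cells, a fly line, had been added at 1 part to 15 as a spike-in. A score is the log2 of a normalized tag count on coding sequence. Translation efficiency, also in log2, is each mouse's footprint score less its total RNA score. Maf1 itself is not analysed here.

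The libraries differed in offset before any gene was looked at. The median translation efficiency over all genes was -2.01, -1.04 and -1.13 in KO1, KO2 and KO4, against -1.49, -1.44 and -0.64 in WT1, WT2 and WT3, so KO1 stood lowest and WT3 highest. Replicates correlated across genes with Pearson's r between 0.97 and 0.99. Values below are therefore also given centred, that is, less the median gene of the same library. Centring also removes any difference between genotypes that all genes share, which the spike-in had been added to detect. All 12 hepatocyte markers were measured, and their summed centred total RNA ranged between 12.6 and 13.05 in KO and between 12.3 and 13.04 in WT livers. Of these 12, 4 had higher centred total RNA in KO livers (median difference -0.05) and 8 had higher centred footprints (0.05). All 12 measured Kupffer cell markers had higher centred total RNA in KO livers (summed, 5.69 to 6.17 in KO against 5.20 to 5.46 in WT, log2), and so had 7 of 7 stellate and 7 of 8 endothelial markers. In footprints 12 of 12 Kupffer, 4 of 7 stellate and 6 of 8 endothelial markers were higher in KO. The 2 measured platelet markers and the 2 measured red cell markers had lower centred total RNA in KO livers (median difference -0.65 and -0.44). In footprints both platelet markers were higher in KO and both red cell markers lower (0.14 and -0.14). The platelet markers Itga2b and Pf4 had total RNA scores of 5.04 to 5.72 and 4.77 to 6.94. The lowest gene of each total RNA library scored between 4.76 and 5.08. None of the 5 neutrophil and 6 T and B cell markers was in the table. The part of these shifts in the members' values was not tested, and in whole liver a change in the number of cells of a type and a change in RNA per cell cannot be told apart.

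The first question was how well these mRNAs are translated compared with other liver mRNAs. Of the 39 members, 31 lay above the median gene of the same mouse in translation efficiency and 1 lay below it (limma with Benjamini-Hochberg adjustment over all genes, adjusted p under 0.05). Over all 11587 genes, 37.3% lay above and 37.7% below. Among the coagulation genes 18 of 21 lay above and 0 below, and among the complement genes 13 of 18 lay above and 1 below. Where genes with low scores were left out, the median gene lay higher and every member's value dropped by 0.17. There 14 coagulation genes lay above and 1 below, and 9 complement genes above and 2 below. Of all 8003 genes kept, 3011 lay above and 3000 below. The 8 members whose call was lost there were F10, Proc, Pros1, Klkb1, Mbl1, C3, C8a and C9, and F9 and Mbl2 then lay below the median gene. The median member reached 0.64 in the coagulation group and 0.40 in the complement group on the log2 scale, where the median of all genes is 0 by construction.

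**Figure D1:**
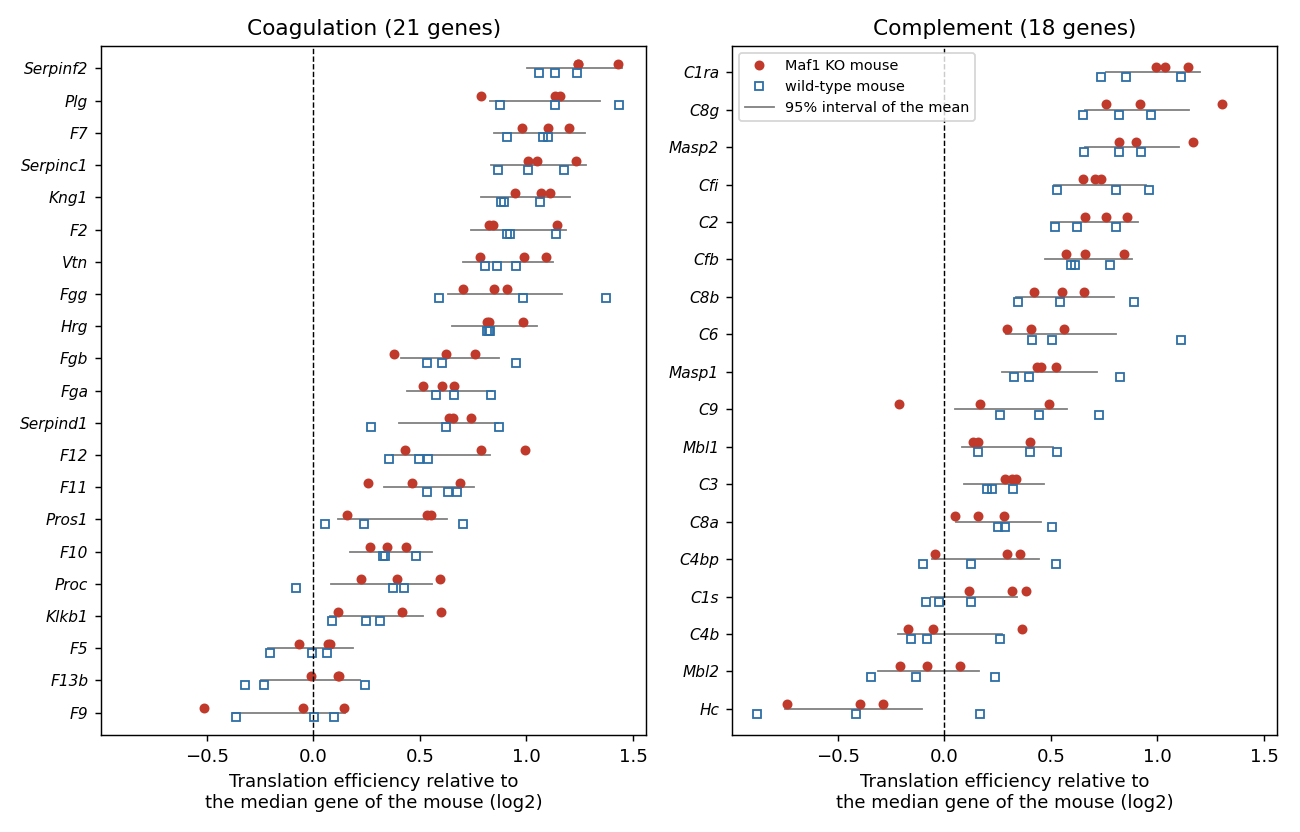
Translation efficiency of the 39 members relative to the median gene of the same mouse (x axis, log2), coagulation on the left and complement on the right, genes ordered by their mean. Filled circles are Maf1 KO mice, open squares wild-type mice and grey lines the 95% interval of the mean; Serpinf2 is highest at 1.22 and Hc lowest at -0.42.

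The sequences around the start codon are shown for members from both ends of this order, since the start codon is where the ribosome commits to an mRNA. They come from GENCODE M1 on NCBIM37 (the same assembly as mm9, the authors' mouse build), from the transcript with the longest coding sequence. Each runs 5′ to 3′ from 10 bases before to 4 bases after the ATG, which is in capitals, and the coordinates are those of the start codon.
Serpinf2 (chr11:75251954-75251956, minus strand): caacaggaacATGgcac
Plg (chr17:12571534-12571536, plus strand): cagtcccaacATGgacc
F7 (chr8:13026059-13026061, plus strand): cagtctcatcATGgttc
C8g (chr2:25355749-25355751, minus strand): caggttggccATGctgt
Masp2 (chr4:147976695-147976697, plus strand): gtggcacaccATGaggc
C4b (chr17:34880769-34880771, minus strand): tcctccagccATGcggc
F5 (chr1:166082094-166082096, plus strand): gacaagggccATGctcc
F13b (chr1:141398323-141398325, plus strand): agacacactgATGatga
Mbl2 (chr19:30308471-30308473, plus strand): cgtgaggagcATGtcca
Hc (chr2:34916901-34916903, minus strand): gctaccagccATGggtc
A purine 3 bases before the ATG, the main feature of the Kozak context, was present in 34 of the 38 members with an annotated context, or 89.5%, and in 86.0% of 10640 genes of the table. F13b was one of the members without it. A G directly after the ATG was present in 9 of 38 members, or 23.7%, and in 53.0% of those genes. Serpinf2, Plg and F7 at the top of the order carried that G, and so did Hc at its foot.

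The highest member was a regulator of fibrin breakdown. Serpinf2, the plasmin inhibitor alpha-2-antiplasmin, had relative translation efficiencies of 1.24, 1.24 and 1.43 in KO1, KO2 and KO4, against 1.13, 1.24 and 1.06 in WT1, WT2 and WT3. Its mean of 1.22 (SE 0.098) corresponds to 2.33 times the footprints per total RNA tag of the median gene (limma adjusted p = 1.48e-05), in 6 of 6 mice. Plg, the precursor of plasmin, had 1.13, 0.79 and 1.16 in KO and 1.13, 0.87 and 1.43 in WT mice, a mean of 1.09 (SE 0.11). Its 2 deposited transcripts gave 1.36 and 0.81, so the size for Plg depends on the transcript. Serpinc1, which encodes antithrombin, averaged 1.06 (SE 0.098), and Serpind1, which encodes heparin cofactor II, averaged 0.63 (SE 0.10).

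The vitamin K-dependent proteins, which need gamma-carboxylation in the endoplasmic reticulum, were spread over nearly the whole order. F7, the protease that starts clotting with tissue factor, had 0.98, 1.10 and 1.20 in KO and 1.10, 1.08 and 0.91 in WT mice, a mean of 1.06 (SE 0.094, limma adjusted p = 2.02e-05). F2, which encodes prothrombin, averaged 0.96 (SE 0.098). Below them came Pros1 (protein S, a cofactor of protein C) at 0.37, F10 (the protease that activates prothrombin) at 0.37 and Proc (protein C, which inactivates factors V and VIII) at 0.32, all 3 past the threshold, none of them with low genes left out. F9, the protease deficient in haemophilia B, had 0.14, -0.05 and -0.51 in KO and -0.36, 0.10 and 0.00 in WT mice. The 6 values of F9 straddled 0, and its mean of -0.11 (SE 0.12) was not distinguished from the median gene (limma adjusted p = 0.391).

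F5, the cofactor of factor Xa, had 0.08, 0.07 and -0.07 in KO and -0.20, 0.06 and -0.01 in WT mice. F13b, the carrier subunit of the fibrin cross-linking enzyme, had 0.12, 0.12 and -0.01 in KO and -0.23, 0.24 and -0.32 in WT mice. Neither was distinguished from the median gene (limma adjusted p = 0.911 for F5, interval -0.21 to 0.19, and 0.910 for F13b, interval -0.25 to 0.22). In the contact system, Kng1, the kininogen that releases bradykinin, averaged 0.99, F12 0.60, F11 0.54 and Klkb1, the prekallikrein gene, 0.30, all past the threshold, Klkb1 not with low genes left out. The plasma adaptors Vtn, which encodes vitronectin, and Hrg, the histidine-rich glycoprotein, averaged 0.91 and 0.85.

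In the complement group the lectin and classical pathways each held members from both ends. C1ra, the first protease of the classical pathway, had 1.04, 0.99 and 1.14 in KO and 0.74, 1.11 and 0.85 in WT mice, a mean of 0.98 (SE 0.097, limma adjusted p = 3.18e-05). Masp2, the protease that cleaves C4 and C2 in the lectin pathway, had 0.90, 1.17 and 0.82 in KO and 0.65, 0.82 and 0.92 in WT mice, a mean of 0.88 (SE 0.097). Its 3 transcripts gave 1.23, 0.91 and 0.50. Masp1, the protease that activates Masp2, averaged 0.49, and C2, the protease of the C3 convertase, averaged 0.70. Of the collectins that recognize sugars, Mbl1 averaged 0.30 and passed the threshold, though not with low genes left out. Mbl2, the other collectin, had 0.08, -0.21 and -0.08 in KO and 0.24, -0.13 and -0.34 in WT mice, a mean of -0.08 (SE 0.10, limma adjusted p = 0.526).

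C4b, the C4 component cleaved by both pathways, had -0.17, -0.05 and 0.37 in KO and -0.16, -0.08 and 0.26 in WT mice, a mean of 0.03 (SE 0.11). Its 2 transcripts fell on either side of the median gene, at 0.37 and -0.32. C4b, C1ra, C1s and Kng1 have near-identical relatives in the mouse genome, and the sources used here do not say how tags shared with these were assigned, so their values are uncertain. C3, the hub of the cascade, averaged 0.28, a call also lost with low genes left out, and had the smallest spread between mice of all members (SD 0.050). Cfb, the protease of the alternative pathway, averaged 0.68. The regulators Cfi, which cuts C3b and C4b, and C4bp, its cofactor, averaged 0.73 and 0.19, the second not past the threshold (limma adjusted p = 0.141).

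The terminal pathway held the member at the foot of the order. Hc, the mouse gene of C5, had -0.40, -0.29 and -0.74 in KO and -0.88, -0.41 and 0.17 in WT mice. Its mean was -0.42 (SE 0.14, limma adjusted p = 0.0226), 5 of 6 mice lay below the median gene, and WT3 lay above it. The call was lost when KO4, WT1 or WT2 was left out. Hc was also the member with the largest spread in relative translation efficiency (SD 0.41). C8g, the lipocalin-like chain of C8, had 0.76, 0.92 and 1.30 in KO and 0.82, 0.97 and 0.65 in WT mice, a mean of 0.90 (SE 0.11). C6, C8b, C9 and C8a, which build the membrane attack complex, averaged 0.55, 0.57, 0.31 and 0.25, all past the threshold, C9 and C8a not with low genes left out. Both of these calls were also lost when KO1, KO2 or WT3 was left out, and that of C9 without WT1.

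The order of the members was similar from mouse to mouse. Over the 39 members, relative translation efficiency correlated between pairs of mice with Pearson's r between 0.63 and 0.94, as a description across genes that are not independent, and the lowest value was between KO4 and WT3. The median SD between mice of one genotype was 0.17 for the members and 0.30 for all genes, and 0.24 for the 1741 genes at least as abundant as the lowest member. Across members, relative translation efficiency and total RNA score had a Spearman correlation of 0.42 in the coagulation group (21 genes) and -0.21 in the complement group (18 genes), and of 0.25 over 10851 genes. With coding length it was -0.17 over the 39 members and -0.48 over the 10851 genes. The correlations with the total RNA score share the total RNA library in both terms, and none of these correlations carries a test.

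Neighbours in this order were mostly not separable. Serpinf2 at 1.22 and Plg at 1.09 had overlapping intervals of 1.00 to 1.45 and 0.83 to 1.34. The interval of Serpinf2 lay wholly above that of F10, which was 0.17 to 0.56.

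Set against each other, the coagulation group had the higher median in every mouse. The difference of medians in translation efficiency, coagulation minus complement, was 0.18, 0.35 and 0.27 in KO1, KO2 and KO4, against 0.19, 0.22 and 0.22 in WT1, WT2 and WT3, a mean of 0.24 ± 0.061 (SD, n = 6). It was positive in 6 of 6 mice and of like size in both genotypes (0.26 in KO and 0.21 in WT). This is a description of the 2 lists, given with no test. In total RNA the same difference averaged 0.38 ± 0.23 and in footprints 0.51 ± 0.16 (SD, n = 6). The total RNA value depended on the membership: without Hrg and Vtn it was -0.16, and without C1ra, C1s, C4b and Kng1 it was -0.11. In translation efficiency, by members' means, the gap was also smaller without those 4 genes. The middle complement member was then Masp1 at 0.49, beside 0.40 for the full group. The coagulation median then lay between Serpind1 at 0.63 and Fga at 0.64.

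The second question was whether loss of MAF1 changed these mRNAs or their translation. With scores as deposited, 0 of 39 members passed the threshold by limma with Benjamini-Hochberg adjustment, be it in total RNA (0.276% of all genes passed), footprints (0.0863%) or translation efficiency (0.0173%). With each library centred, 0 members passed in any measure, beside 0.0173%, 0% and 0% of all genes. At an unadjusted p under 0.05, on either scale, 1 of 39 members passed for total RNA, 1 for footprints and 0 for translation efficiency. As deposited, 3.61%, 2.49% and 1.03% of all genes passed in these 3 measures, and centred 8.48%, 4% and 3% did. The member was F11 in each case, and the members' share was thus near or below that of all genes.

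The median difference, KO minus WT, was -0.04 in total RNA for the coagulation group, 0.01 for the complement group and 0.00 for all genes. In footprints it was -0.22 for coagulation, -0.19 for complement and -0.18 for all genes. In translation efficiency it was -0.13 for coagulation, -0.20 for complement and -0.19 for all genes. The members' negative values in the last 2 measures were thus close to those of all genes. After centring, the medians in translation efficiency were 0.08 for coagulation, 0.01 for complement and 0.02 for all genes.

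**Figure D2:**
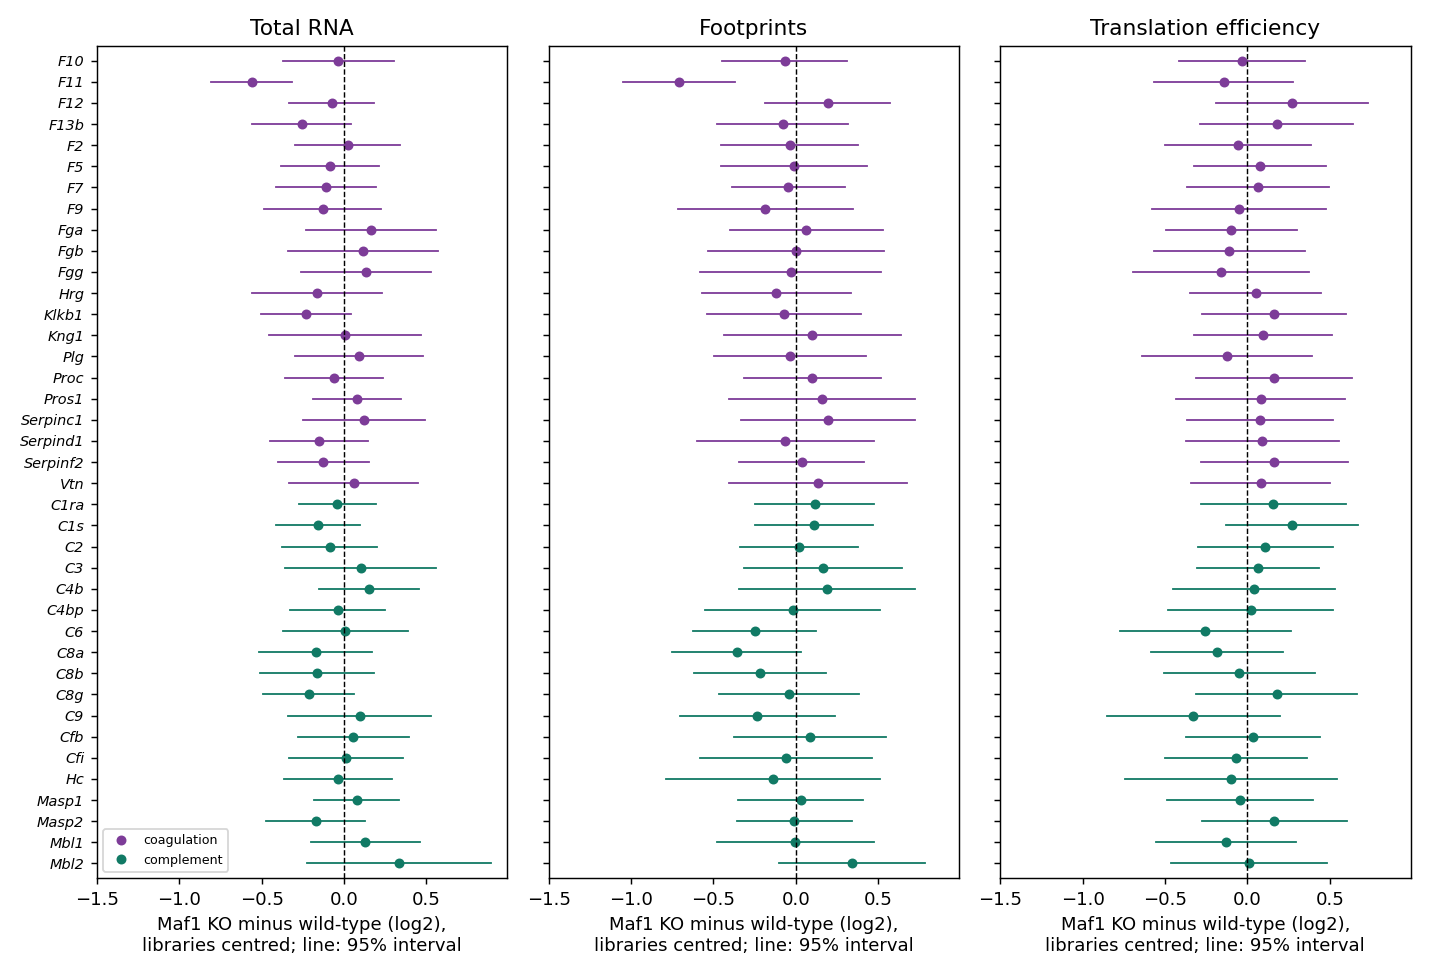
Difference of Maf1 KO minus wild-type livers (x axis, log2, libraries centred) for the 39 members in total RNA, footprints and translation efficiency. Points are limma estimates and lines 95% intervals, coagulation in purple and complement in green; F11 lies farthest from 0, at -0.56 in total RNA and -0.71 in footprints.

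F11, the gene of coagulation factor XI, which thrombin or factor XIIa activates to sustain clotting, had the largest difference of any member. Its centred total RNA was 1.90, 1.90 and 2.04 in KO1, KO2 and KO4, against 2.52, 2.42 and 2.59 in WT1, WT2 and WT3. Its centred footprints were 2.75, 2.51 and 2.44 in KO and 3.30, 3.22 and 3.30 in WT mice. All 3 KO values lay below all 3 WT values in both kinds of library.

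The centred difference of F11 was -0.56 in total RNA (SE 0.11, interval -0.81 to -0.31, limma adjusted p = 0.197) and -0.71 in footprints (SE 0.15, interval -1.05 to -0.37, limma adjusted p = 0.829). With scores as deposited it was -0.54 (interval -1.04 to -0.05) and -0.90 (interval -1.60 to -0.19). Neither passed after adjustment over all genes, and the relative translation efficiency of F11 was 0.69, 0.46 and 0.26 in KO and 0.63, 0.67 and 0.54 in WT mice, a difference of -0.14 (interval -0.57 to 0.28). F11 had the lowest total RNA score of the members. It lies at chr8:46326524-46347385 on the minus strand of NCBIM37, next to its relative Klkb1 at chr8:46354796-46393820.

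**Figure D3:**
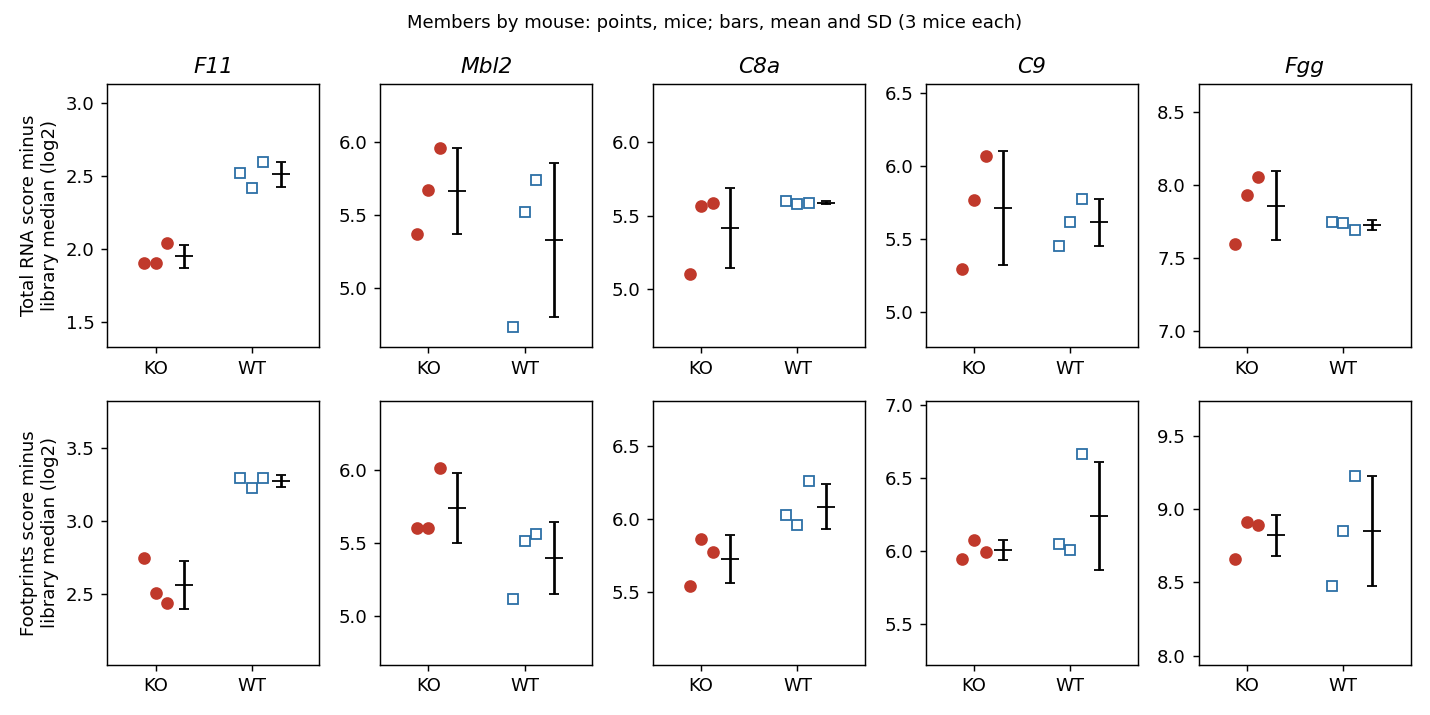
Centred scores (y axis, log2, score minus library median) of 5 members by mouse, total RNA in the upper row and footprints in the lower row, Maf1 KO left of wild-type; points are mice, bars the mean and SD of 3 mice. Each panel spans the same log2 range; for F11 every KO value lies below every WT value in both rows.

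Genotypes that did not overlap were no more common among the members than in the table as a whole. After centring, 2 of 39 members did not overlap in total RNA (13.9% of all genes), F11 and C8g, both lower in KO. In footprints 3 did not (9.1%), Mbl2 higher and F11 and C8a lower in KO, and in translation efficiency 1 did not (7.35%), Serpinf2 higher in KO.

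Among the complement genes the largest positive difference was that of Mbl2. Its centred footprints were 5.60, 5.60 and 6.01 in KO and 5.11, 5.51 and 5.56 in WT mice, a difference of 0.34 (interval -0.10 to 0.78). Its centred total RNA was 5.37, 5.67 and 5.95 in KO and 4.73, 5.52 and 5.73 in WT mice, a difference of 0.34 (interval -0.22 to 0.89), with WT1 far below the rest. C4b came next with scores as deposited, at 0.17 in total RNA and 0.00 in footprints. Its centred total RNA was 4.66, 5.09 and 4.97 in KO and 4.74, 4.73 and 4.79 in WT mice, and the genotypes overlapped through KO1.

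The lowest complement differences in footprints were those of 2 genes of the membrane attack complex. C8a had centred footprints of 5.54, 5.86 and 5.77 in KO and 6.03, 5.96 and 6.26 in WT mice, a difference of -0.36 (interval -0.75 to 0.03). C6 had 5.49, 5.68 and 5.45 in KO and 5.84, 5.62 and 5.90 in WT mice, a difference of -0.25 (interval -0.62 to 0.12). All 6 terminal pathway members had lower mean centred footprints in KO livers, with a median difference of -0.22, while 5651 of all 11587 genes were lower. The other complement roles went both ways. In footprints 4 of 4 classical, 2 of 2 C3 and alternative, 2 of 4 lectin and 0 of 2 regulator members were higher in KO. In total RNA 2 of the 6 terminal pathway members were higher.

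The median terminal pathway member had centred footprints of 5.51, 5.77 and 5.66 in KO1, KO2 and KO4, against 5.93, 5.79 and 6.07 in WT1, WT2 and WT3. None of these 6 genes passed the test. In translation efficiency C9, the pore-forming protein, had 0.49, 0.17 and -0.21 in KO and 0.45, 0.26 and 0.72 in WT mice. Its difference was -0.54 as deposited and -0.33 after centring (interval -0.85 to 0.20), and the groups overlapped.

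C6 had relative translation efficiencies of 0.56, 0.41 and 0.29 in KO and 0.51, 0.41 and 1.11 in WT mice, so its difference of -0.26 after centring rested on WT3. In total RNA C8g, the smallest C8 chain, had 5.35, 5.12 and 5.17 in KO and 5.40, 5.47 and 5.41 in WT mice, a difference of -0.21 (interval -0.49 to 0.06). C8a had 5.10, 5.56 and 5.58 in KO and 5.60, 5.58 and 5.59 in WT mice, where KO1 stood apart from the other 5. At the upper end of translation efficiency, C1s differed by 0.06 as deposited and by 0.27 after centring (interval -0.13 to 0.67).

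The remaining coagulation genes at the ends of the range had intervals across 0 as well. F13b had centred total RNA of 3.67, 3.74 and 3.86 in KO and 3.83, 3.95 and 4.25 in WT mice, a difference of -0.26 (interval -0.56 to 0.04). F9 had centred footprints of 3.78, 3.95 and 3.56 in KO and 3.42, 4.16 and 4.26 in WT mice, a difference of -0.18 (interval -0.71 to 0.35). Both sets of values overlapped.

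Serpinc1 had centred footprints of 8.02, 8.24 and 8.34 in KO and 7.60, 8.10 and 8.31 in WT mice, a difference of 0.20 (interval -0.33 to 0.72). F12 had centred footprints of 5.37, 5.54 and 5.79 in KO and 5.38, 5.36 and 5.38 in WT mice, a difference of 0.19 (interval -0.18 to 0.57). F12, whose contact with surfaces starts the intrinsic pathway, had relative translation efficiencies of 0.43, 0.78 and 0.99 in KO and 0.54, 0.50 and 0.36 in WT mice, a difference of 0.27 after centring (interval -0.19 to 0.73). Across all members and measures after centring, the differences lay between -0.71 and 0.34.

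Some of these proteins are built from several chains in equal number, which allows their mRNAs to be compared within a mouse. The fibrinogen genes lie side by side on chromosome 3, Fgg at chr3:82811781-82818975, Fga at chr3:82830075-82838036 and Fgb at chr3:82846169-82853725 (NCBIM37), the last on the opposite strand. Because they are neighbours with like RNA scores, the 130 bases upstream of each start are shown, from RefSeq on GRCm38.p6, a different build, 5′ to 3′ on the strand of the gene. Capitals mark CTGGGA (an interleukin-6 response motif), GTTAAT (a half-site of HNF1) and TTGCNNAA (a C/EBP motif), each searched on both strands.
Fga (chr3:83026023-83026152, plus strand): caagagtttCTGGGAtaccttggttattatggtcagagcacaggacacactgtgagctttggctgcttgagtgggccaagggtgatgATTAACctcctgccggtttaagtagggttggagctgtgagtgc
Fgb (chr3:83049864-83049993, minus strand): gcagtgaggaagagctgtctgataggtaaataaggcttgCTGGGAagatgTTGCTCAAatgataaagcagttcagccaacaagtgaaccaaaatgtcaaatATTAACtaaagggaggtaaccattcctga
Fgg (chr3:83007594-83007723, plus strand): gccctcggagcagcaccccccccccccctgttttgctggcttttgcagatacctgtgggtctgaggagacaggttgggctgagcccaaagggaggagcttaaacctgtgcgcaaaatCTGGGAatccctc
CTGGGA stood in all 3 stretches. In the 250 bases upstream of the start it was found in 13 of the 30 members with an entry, or 43.3%, and in 26.8% of 27025 promoters. GTTAAT was found in 9 of 30 members, or 30.0%, and in 6.52% of promoters, and TTGCNNAA in 8 of 30, or 26.7%, and in 9.55%. A match is a run of letters and not a shown binding site.

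The fibrinogen chains, which form a dimer of alpha, beta and gamma, had similar total RNA scores. Centred total RNA averaged 7.99 for Fga, 8.20 for Fgb and 7.79 for Fgg. Fga had 7.86, 8.12 and 8.25 in KO and 7.86, 7.97 and 7.91 in WT mice, and Fgg had 7.60, 7.93 and 8.05 in KO and 7.74, 7.74 and 7.69 in WT mice. Their differences of 0.16 and 0.13, KO minus WT, had intervals across 0.

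In relative translation efficiency Fga and Fgb were alike, at 0.64 each, with a difference in Fga minus Fgb of 0.00 ± 0.14 (SD, n = 6). Fgg was higher, with 0.91, 0.85 and 0.70 in KO and 0.59, 0.98 and 1.37 in WT mice. It exceeded Fgb in 6 of 6 mice, by 0.26 on average (exact two-sided sign-flip test, p = 0.03125, the smallest that 6 mice allow, adjusted p = 0.0410 over 21 tests of 7 pairs). It exceeded Fga in 5 of 6 mice, by a like amount (exact p = 0.0625, adjusted p = 0.0772). The smallest adjusted p over the 21 exact tests became 0.0505 when total RNA and footprints were not corrected for length, and 0.0772 or 0.0820 with a mouse left out, so no pair passed in those settings.

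**Figure D4:**
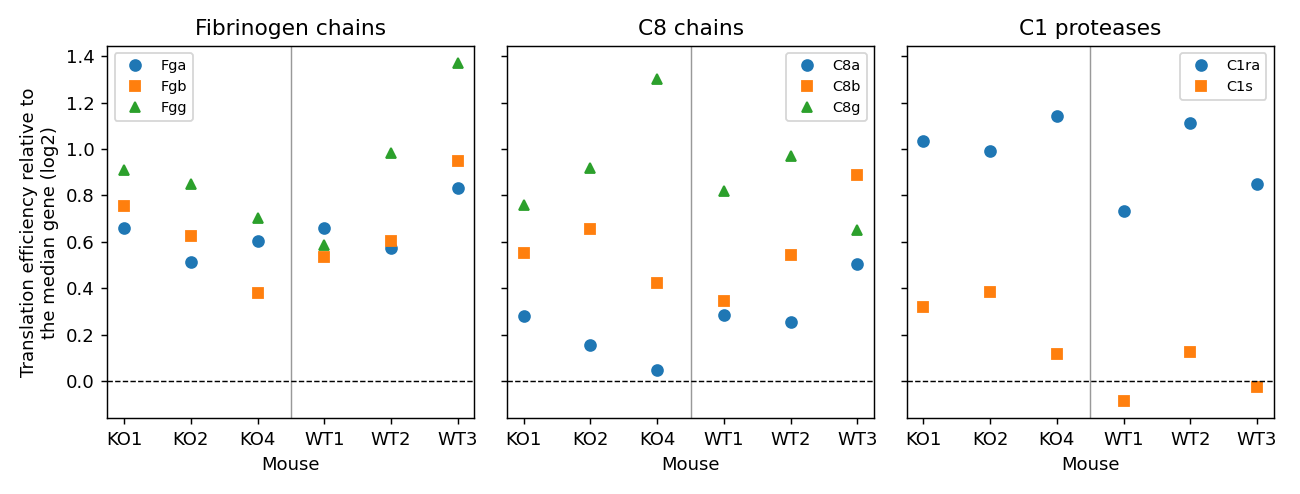
Translation efficiency relative to the median gene (y axis, log2) of the chains of fibrinogen, C8 and the C1 proteases in each of the 6 mice (x axis, Maf1 KO left of the grey line, wild-type right of it). C1ra lies above C1s in every mouse, and Fgg above Fgb in every mouse.

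In C8, the complement component with alpha, beta and gamma chains, the order was C8g, C8b, C8a. C8a lay below C8b in 6 of 6 mice by 0.31 on average and below C8g in 6 of 6 mice by 0.65 (exact p = 0.03125 and adjusted p = 0.0410 for both). C8b lay below C8g in 5 of 6 mice (exact p = 0.0938, adjusted p = 0.104).

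The widest gap in translation efficiency was between the C1 proteases, which circulate as a tetramer of both. C1s had 0.32, 0.38 and 0.12 in KO and -0.09, 0.13 and -0.03 in WT mice. C1ra exceeded it in 6 of 6 mice, by 0.84 ± 0.16 (SD, n = 6; exact p = 0.03125, adjusted p = 0.0410). In total RNA the deposited score of C1ra was lower than that of C1s by 0.94 on average, whereas in footprints the difference in C1ra minus C1s was -0.10 ± 0.11 (exact p = 0.125). The coding lengths of the pair are nearly equal (2124 and 2085 bases), so a length correction moved these only to -0.97 and -0.13. The deposited transcripts of C1ra gave relative translation efficiencies of 1.16 and 0.79, beside 0.14 for C1s. The size of the gap therefore depends on the transcript. Because C1ra and C1s have near-identical relatives and the assignment of shared tags is not stated, the size of these differences is uncertain.

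For the other chains the comparison of levels depended on whether the scores already count tags per length, which the sources do not state. Over all genes the total RNA score fell with coding length by 0.48 per doubling, and the Fga transcript labelled isoform 2 scored 0.51 above isoform 1, beside a log2 ratio of 0.50 between the longest Fga coding sequences of 2370 and 1674 bases. Scores as deposited gave footprint differences of -0.21 for Fga minus Fgb, -0.06 for Fga minus Fgg and 0.15 for Fgb minus Fgg. With a correction for coding length these were -0.92, -0.89 and 0.03. For C8a minus C8b the values were 0.32 on both scales, for C8a minus C8g -0.46 and -1.999, and for C8b minus C8g -0.78 and -2.32. Differences in translation efficiency are not affected, since the length cancels. Their adjusted p-values are, because the 21 exact tests were adjusted together. For the pairs at the smallest p the adjusted value was 0.0410 with the correction and 0.0505 without it (exact sign-flip test).

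Other genes of the same systems, 26 for coagulation and 31 for complement, were read in the same way. Of the 18 other coagulation genes in the table, 12 lay above and 1 below the median gene, and of the 22 other complement genes, 16 lay above and 1 below. The shares of all genes were 37.3% above and 37.7% below. Between genotypes, with scores as deposited, 0.276% of all genes passed for total RNA, 0.0863% for footprints and 0.0173% for translation efficiency. Of the 18, 0 passed on any measure. Of the 22, 1 passed: Cfd, which encodes factor D, the protease that activates Cfb, fell by 1.54 on the log2 scale in KO total RNA (SE 0.33, limma adjusted p = 0.00178) with scores as deposited. Its scores were 5.45, 5.73 and 5.82 in KO and 7.10, 8.46 and 6.07 in WT mice, so the genotypes did not overlap but the WT mice were widely spread. The SE and p-value of this fit rest on a variance trend over all genes and not on the spread of Cfd itself. The KO values lay near the lowest score of any gene in these libraries, which ranged between 4.76 and 5.08. The footprint scores of Cfd overlapped, at 4.96, 6.58 and 6.37 in KO and 7.47, 8.59 and 6.02 in WT mice. With libraries centred the difference of Cfd was as large, at -1.56 (SE 0.48), and did not pass (limma adjusted p = 0.463).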

How the data were processed

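Livers of 3 Maf1 KO and 3 wild-type mice gave 12 libraries. Per the methods, the authors removed tags shared by the mm9 and dm6 genomes, aligned the rest to coding sequences, normalized to total aligned tags and with TMM, and applied a Drosophila spike-in factor; the deposited values are log2 scores per transcript, and the header does not say whether that factor is included. Aligner versions are not given in the sources used here. Depth is unknown, because no counts were used, so no counting interval is given.

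Scores were averaged per gene. Genotypes, and translation efficiency against 0 after centring each mouse on its median gene, were tested with limma 3.58.1 (R 4.3.3; trended prior; Benjamini-Hochberg over all 11587 genes, 0.05). The code was tested on simulated data. Pairs of chains had an exact sign-flip test. The 3 highest and 3 lowest members per group in translation efficiency, the 2 at each end of each genotype difference and the chains are given by mouse. Nothing in the labels says that mice were litter mates or were independent otherwise. The p-values rest on the spread between these mice. In the genotype fits of scores as deposited the prior degrees of freedom were infinite. There the SEs, intervals and p-values use a variance trend over all genes and not each gene's own spread. Alternatives were library scaling, quantile normalization, a filter on low genes, the top transcript, other priors and left-out mice. Members and lists were chosen with earlier results of these data known. The design assumed scores not divided by length; levels of chains are therefore given on both scales.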

Additional observations from a re-analysis of the deposited data

How the results depend on the processing

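With 3 mice a genotype and no counts, small differences are not detectable here. The count of members past the threshold between genotypes stayed at 0 in every alternative but 1, including those added after seeing the data (libraries centred with a mouse left out; without KO1 and WT3). With the replicate number as a block and libraries centred, 1 member passed in footprints, F11 (limma adjusted p = 0.0390), where 429 genes were called; deviations of same-numbered mice correlated at 0.23 and 0.27 in total RNA, -0.06 and 0.10 in footprints and -0.10 and 0.10 in translation efficiency, and with only 2 shared numbers and no label tying them the mice were not treated as pairs. The block alone called 0 members in each measure. Over all genes, the calls were 32 in total RNA (0 to 53 over the alternatives), 10 in footprints (0 to 429) and 2 in translation efficiency (0 to 9). Members above the median gene numbered 23 to 33 over the alternatives. The 23 came with low genes removed, beside 3011 of 8003 genes, and 33 came without pairing, beside 4810 of 11587 genes. Besides the filter on low genes, leaving out a mouse ended the call of Proc (KO2, KO4, WT1 or WT2), Pros1 (KO2), Klkb1 (KO1, KO2 or WT2) and Mbl1 (KO4, WT1 or WT2). The 1 member below the median gene, Hc, became 0 with footprints and total RNA not paired (no replicate block). That setting centred each library on its own median, so the reference moved as well, and 4810 genes lay above it and 3551 below. The count was also 0 with the library mean in place of the median. With low genes removed it was 3 of 39 members, beside 3000 of 8003 genes. With a mouse left out it was 0 to 1, and 0 without KO4, without WT1 and without WT2. Coagulation minus complement in total RNA became -0.16 without Hrg and Vtn and -0.11 without C1ra, C1s, C4b and Kng1; in footprints it was 0.68 with means over members and 0.30 without those 4. Of the exact chain tests, 16 of 21 passed with coding length corrected, 0 without it (smallest adjusted p = 0.0505) and 0 with each mouse left out, since the exact test over 5 mice cannot give less than p = 0.0625. Without the correction Fga minus Fgg in total RNA turned to 0.20 and C8a minus C8g to 0.18. These 2 shifts are the log2 ratio of coding lengths that the correction subtracts. Without it fewer of the exact tests reached the smallest p-value, so the joint adjustment left no call. The cause of the remaining changes was not tested.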
